A study of Mus musculus with 6 samples.

Results

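The genes examined encode 9 surface proteins by which mouse spermatogonia are recognised or sorted, namely Itgb1, Itga6, Cd9, Epcam, Cdh1, Mcam, Thy1, Cd24a, and Adgra3. Their sites were the CpG sites that the deposited table assigns to these gene names, at any distance, with at least 10 reads in all 6 samples. These were 338 of the 681804 sites that passed the same coverage minimum, and 207 of them were promoter sites, within 1 kb of the transcription start site (TSS), while 131 were distal sites, farther than 1 kb away. Of the 9 genes, 8 had such a site. Itga6 had no row and was not analysed here.

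DNA methylation was measured by reduced representation bisulfite sequencing (RRBS), which reads the methylated share of CpG sites in CpG-rich fragments of the genome, in germline stem (GS) cells, which are cultured mouse spermatogonia. The Space group (3 biological replicates) had been kept frozen for 6 months in the International Space Station (ISS), and the Ground group (3 biological replicates) had been kept frozen for 6 months on Earth. Both groups carried the genotype DBA/Tg14(act-EGFP-OsbY01), an EGFP transgene under an actin promoter that was bred into the DBA/2 background, and both were thawed and passaged on mouse embryonic fibroblast feeder cells before analysis. The question was whether the promoters of these genes and the sites farther away differed in methylation level, and whether either differed between Space and Ground GS cells.

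Spermatogonia contact the basement membrane and each other through integrins, cadherins, and other adhesion molecules, and antibodies against these proteins are used to enrich spermatogonial stem cells, since no single antigen marks them alone. The promoters of most expressed and of many silent genes lie in CpG islands, dense stretches of CpG that are usually unmethylated, while most CpG sites elsewhere in the genome are methylated. A low promoter level therefore permits expression but does not measure it.

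RefSeq promoter sequences (GRCm38.p6) were matched by gene symbol for 5 of the 9 genes (Itgb1, Cd9, Epcam, Adgra3, and Mcam). In the 250 bases before the TSS, CG occurred 25 times in Adgra3 and in Mcam, 21 times in Itgb1, 16 times in Cd9, and 8 times in Epcam. The median of 32851 mouse promoters was 6, and 10.7% of them held CG 25 or more times. CCGG, which contains a CG, reads the same on both strands, and is the cutting site of MspI, the enzyme around which RRBS libraries are usually built, occurred 2 times in Cd9 and 3 times in each of the other 4, and was present in 47.1% of all promoters. The sequences of Adgra3 (the gene with the most promoter sites), Cd9 (the highest promoter level), and Mcam (no methylated promoter read) are shown 5′ to 3′ on the strand of the gene, with each CG in capitals. They lie at chr5:50058997-50059246 (minus strand), chr6:125494761-125495010 (minus strand), and chr9:44134408-44134657 (plus strand) of GRCm38.p6.
Adgra3: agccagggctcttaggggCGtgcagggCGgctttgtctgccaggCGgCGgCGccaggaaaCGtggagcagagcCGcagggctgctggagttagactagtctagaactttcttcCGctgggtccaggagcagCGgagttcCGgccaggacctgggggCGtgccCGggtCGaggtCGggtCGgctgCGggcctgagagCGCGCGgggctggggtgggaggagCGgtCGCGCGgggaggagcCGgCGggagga
Cd9: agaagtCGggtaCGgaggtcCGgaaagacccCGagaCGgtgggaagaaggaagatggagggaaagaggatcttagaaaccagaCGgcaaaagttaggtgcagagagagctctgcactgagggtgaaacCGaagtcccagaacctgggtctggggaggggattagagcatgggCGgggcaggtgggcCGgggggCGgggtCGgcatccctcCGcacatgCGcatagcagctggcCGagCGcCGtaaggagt
Mcam: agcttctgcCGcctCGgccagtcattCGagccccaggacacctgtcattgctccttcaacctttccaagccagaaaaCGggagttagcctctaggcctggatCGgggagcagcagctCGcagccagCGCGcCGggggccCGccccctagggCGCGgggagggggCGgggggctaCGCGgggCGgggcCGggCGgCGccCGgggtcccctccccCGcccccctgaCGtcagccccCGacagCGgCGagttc
The deposited table uses mm39, so its sites could not be read from these sequences by coordinate. For Adgra3, the spacing of the sites served instead. The 18 sites that fell in the 300-base RefSeq promoter, which includes the first bases after the TSS, all lay on a CG at a shift of 10 bp, and no other shift of up to 200 bp put more than 9 sites on a CG. Of them, 11 were within the bases shown, near their 3′ end, and their mean levels over the 6 samples were 0.766% to 1.98%. For the other promoters, at most 4 sites fell in the sequence at the best shift, too few to place them. In Itgb1, another shift put 21 sites in the sequence, but only 5 of them on a CG.

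The promoters of all 7 genes that could be measured were nearly unmethylated in both groups, with levels under 10% in every sample. This was also true of 92.9% of the 14373 genes with 3 or more promoter sites. The distal sites differed widely between the genes, from mean levels of 3.01% in Cd24a and 4.09% in Mcam to more than 90% in Itgb1 and Adgra3. No member passed the test between Space and Ground GS cells, at its promoter or at its distal sites, after adjustment. The plot of levels by gene shows each replicate.

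**Figure D1:**
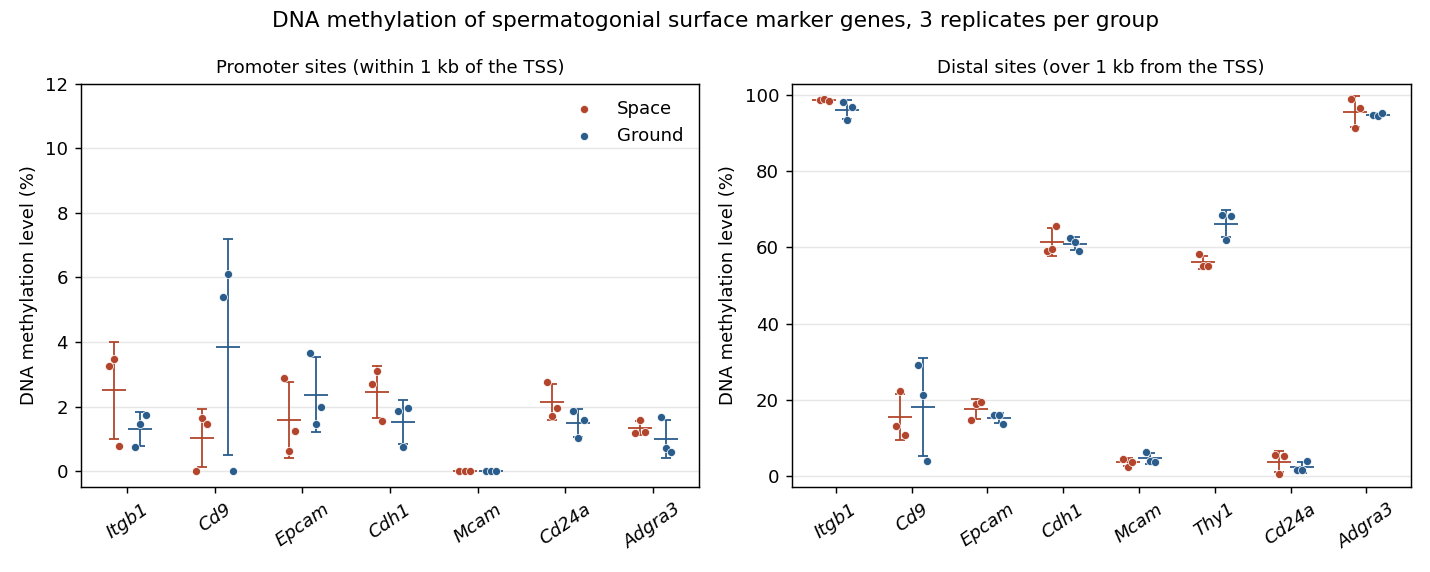
DNA methylation level (%) of promoter sites (left) and distal sites (right) per gene, as reads summed over the sites; points are the 3 Space (red) and 3 Ground (blue) replicates, and bars show the mean ± SD. No promoter point exceeds 6.11%, and the Space and Ground points are apart only at the distal sites of Thy1 and Itgb1.

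Itgb1 encodes the beta1 integrin subunit, which pairs with the alpha6 subunit encoded by Itga6 to form a laminin receptor used to select spermatogonial stem cells. Its TSS is at chr8:129412135 (mm39, plus strand), and 54 of its 57 sites were promoter sites. The promoter level was 3.26%, 3.48%, and 0.781% in Space replicates 1 to 3 and 0.739%, 1.47%, and 1.75% in Ground replicates 1 to 3. The groups overlapped, since Space replicate 3 was as low as the Ground samples. The means were 2.51% ± 1.5 and 1.32% ± 0.523 (SD over 3 replicates each). This promoter had the smallest p among those tested here (quasi-binomial test moderated with limma, p = 0.0815, adjusted p = 0.939).

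The 3 distal sites of Itgb1 lay more than 20 kb away, up to 166048 bp, and were almost fully methylated. Their level was 98.6%, 98.9%, and 98.4% in Space and 98.1%, 93.4%, and 97.0% in Ground GS cells, on 53 to 92 reads per sample. Every Space sample was above every Ground sample, but the means differed by only 2.45 percentage points, 1.08 without Ground replicate 2 and 3.43 without Ground replicate 1 (quasi-binomial test moderated with limma, adjusted p = 0.945). Ranges of the groups did not overlap in 2 of the 8 genes with distal sites, and in 9.73% of all 17207 genes. They overlapped at all 7 promoters, against 9.55% of all genes without overlap.

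Cd9 encodes a tetraspanin, a membrane protein that associates with integrins. It had the highest mean promoter level of the members, 2.44% over the 6 samples, on 3 neighbouring sites 207 to 225 bp upstream of its TSS (chr6:125471754, minus strand). The level was 0%, 1.65%, and 1.45% in Space and 5.41%, 6.11%, and 0% in Ground GS cells, from 111 to 207 reads. Ground replicates 1 and 2 were above the Space samples, while Ground replicate 3 and Space replicate 1 had no methylated read. At the lowest of these depths, 111 reads in Ground replicate 1, a level of 0 would still allow up to 2.70% (3 counts of the reads). The limit is lower for Space replicate 1 (135 reads) and Ground replicate 3 (196 reads), which were at 0. The widest 95% binomial interval (Wilson) of a single sample spanned 8.79 percentage points. These intervals and limits cover counting error only. They take the reads of the 3 sites as separate, although neighbouring sites share reads, and are therefore too small. The difference of the means was -2.80 percentage points, between -4.72 and -1.67 with 1 replicate left out and -1.14 with a coverage minimum of 5 reads (quasi-binomial test moderated with limma, adjusted p = 0.949).

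The distal sites of Cd9 were the most variable. Their level was 13.2%, 22.2%, and 10.8% in Space and 29.2%, 21.3%, and 3.95% in Ground GS cells. The sites that varied most were far upstream. The site at 18712 bp had an SD of 21.5 percentage points in Space and 25.04 in Ground GS cells, and the site at 18608 bp had an SD of 1.16 and 19.2. The mean distal levels were 15.4% ± 6.01 and 18.1% ± 12.9 (SD, n = 3 each), and their difference was -2.71 percentage points, but -14.9 with a coverage minimum of 5 reads and between -9.80 and 2.81 with 1 replicate left out. Of the 8422 genes with 3 or more sites of both kinds, Cab39, Comtd1, and Gm57353 had the promoter and distal levels nearest to those of Cd9, within 0.304 percentage points (Euclidean distance of the mean levels over 6 samples).

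Epcam encodes the epithelial cell adhesion molecule, which is present on undifferentiated and differentiating spermatogonia. It had 73 sites, of which 68 were distal. The promoter level was 2.89%, 0.621%, and 1.25% in Space and 3.67%, 1.46%, and 2.00% in Ground GS cells, with overlapping groups. The distal level was 14.6%, 18.8%, and 19.4% in Space and 16.0%, 16.0%, and 13.7% in Ground GS cells, also overlapping. The distal difference of 2.38 percentage points fell to 0.459 when each site had the same weight, and neither part passed the test after adjustment (quasi-binomial test moderated with limma, adjusted p = 0.991 and 0.938).

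The distal level of Epcam averaged over separate stretches. The 28 sites more than 20 kb from the TSS (chr17:87943407, plus strand) were unmethylated, with mean levels of 2.35% ± 0.716 in Space and 1.52% ± 0.597 in Ground GS cells. They were all upstream, in clusters near 26 kb and 23 kb. The 13 sites from 5 to 20 kb away, in contrast, averaged 90.8% ± 1.31 and 89.1% ± 2.15. The 27 sites from 1 to 5 kb were low again (1.0% ± 1.08 and 1.54% ± 1.48). They were in the same region of 30 sites, 976 to 1284 bp downstream of the TSS, as the outer promoter sites.

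Cdh1 encodes E-cadherin, a calcium-dependent adhesion molecule of spermatogonia. Its 29 promoter sites had levels of 2.71%, 3.11%, and 1.56% in Space and 1.86%, 0.754%, and 1.95% in Ground GS cells. The groups overlapped, and the means were 2.46% ± 0.805 and 1.52% ± 0.668 (SD, n = 3 each). With a coverage minimum of 5 reads, the difference of 0.933 percentage points turned to -0.240. The 12 distal sites had levels of 59.0%, 59.6%, and 65.5% in Space and 62.5%, 61.4%, and 59.1% in Ground GS cells, and neither part passed the test after adjustment (quasi-binomial test moderated with limma, adjusted p = 0.949 and 0.996).

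The distal sites of Cdh1 were mixed. The 5 sites from 1 to 5 kb averaged 44.5% in Space and 44.4% in Ground GS cells, and the 3 sites from 5 to 20 kb averaged 80.3% and 85.4%. At 32434 bp downstream of the TSS, a site was methylated at 87.9% and 88.8%, whereas the site at 32436 bp was at 2.38% and 3.61%, on 13 to 35 reads. Both levels held in all 6 samples. Sites were placed on mm39, and whether these cells, of DBA/2 background, carry a CG at both positions was not tested.

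Mcam encodes CD146, an adhesion molecule of the immunoglobulin superfamily. None of its promoter reads was methylated in any sample, at 4 sites from 51 bp upstream to 17 bp downstream of the TSS (chr9:44045766, plus strand). The 6 samples had 64 to 128 reads there, summed over the 4 sites. The lowest depth allows a level of up to 4.69% if these reads are separate. Neighbouring sites share reads, so the true limit is higher. With no methylated read, the promoter could not be tested. The 19 distal sites had levels of 4.54%, 2.43%, and 3.74% in Space and 6.24%, 3.95%, and 3.67% in Ground GS cells, with overlapping groups (quasi-binomial test moderated with limma, adjusted p = 0.967). Of these sites, 18 lay 3670 to 4538 bp upstream and were unmethylated. The remaining site, 9964 bp upstream, was methylated at 77.8% ± 4.15 in Space and 80.2% ± 7.65 in Ground GS cells.

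**Figure D2:**
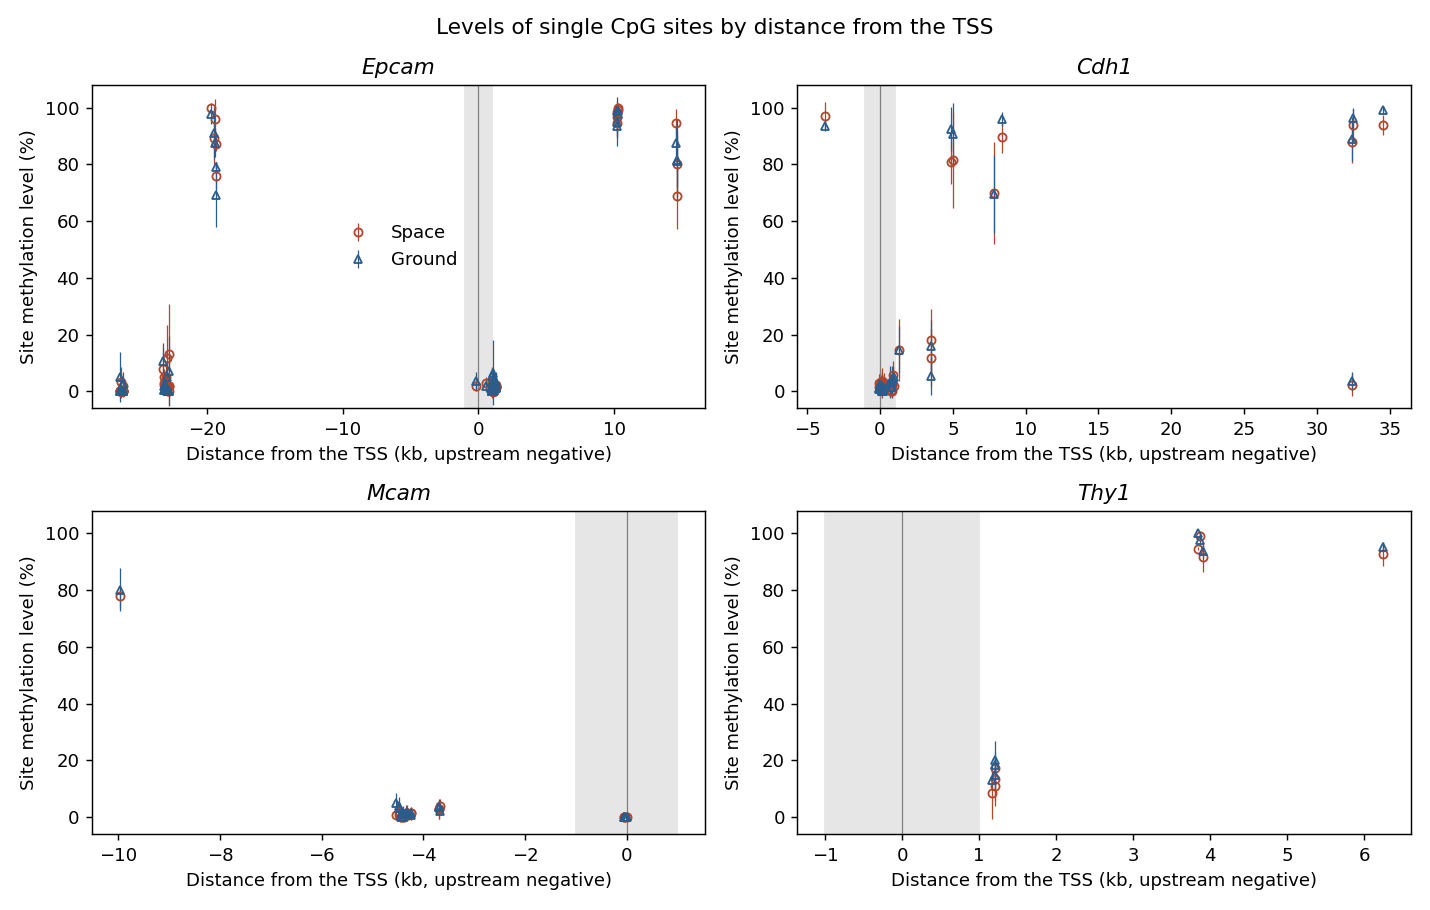
Mean level (%) of each CpG site of Epcam, Cdh1, Mcam, and Thy1 against its distance from the TSS (kb, upstream negative), in Space (red circles) and Ground (blue triangles) GS cells, with bars for the SD over 3 replicates; grey marks the promoter. Epcam is unmethylated near 26 and 23 kb upstream and around the TSS, and methylated in between and farther downstream.

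Thy1 encodes a glycosylphosphatidylinositol (GPI)-anchored immunoglobulin-like protein that is used to enrich mouse spermatogonial stem cells. The table held 20 promoter rows of Thy1 (TSS at chr9:43954681, plus strand), but none had 10 reads in all 6 samples. At any coverage, 16 of 430 promoter reads over all samples were methylated (3.72%). The promoter of Thy1 was therefore not compared between the groups.

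The 8 distal sites of Thy1 showed the largest difference between the groups among the members. Their level was 58.1%, 55.1%, and 55.0% in Space and 68.6%, 62.1%, and 68.1% in Ground GS cells, without overlap. The means were 56.1% ± 1.77 and 66.3% ± 3.64 (SD, n = 3 each), a difference of -10.2 percentage points. The unadjusted p was 0.0106 (quasi-binomial test moderated with limma, adjusted p = 0.904), and Thy1 was the only member of 8 with an unadjusted p under 0.05, against 5.45% of all genes tested at distal sites.

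This difference depended on where the reads of Thy1 fell. A group of 4 sites 1163 to 1209 bp downstream of the TSS was at 12.6% ± 4.55 in Space and 16.7% ± 2.94 in Ground GS cells, and the other 4 sites, at 3849 bp and farther, were at 94.6% ± 0.78 and 96.2% ± 1.34. The near sites took 47.6%, 46.2%, and 47.1% of the reads in Space but 36.7%, 43.7%, and 33.0% in Ground GS cells. The group difference was -4.11 percentage points within the near sites and -1.69 within the far sites. With equal weight for all sites, the means were 53.6% and 56.7% and the difference was -3.13 percentage points.

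Cd24a encodes a small GPI-anchored glycoprotein. Its promoter (32 sites, TSS at chr10:43454280, plus strand) was at 2.75%, 1.70%, and 1.97% in Space and 1.87%, 1.03%, and 1.60% in Ground GS cells, with overlapping groups. Its 13 distal sites were low too, at 5.43%, 0.499%, and 5.25% in Space and 1.48%, 1.49%, and 3.89% in Ground GS cells. They included 4 sites from 5 to 20 kb away, with mean site levels of 4.38% ± 3.25 and 2.57% ± 1.14 (SD, n = 3 each). All 45 sites of Cd24a had a mean level under 10%, and neither part passed the test between the groups (quasi-binomial test moderated with limma, adjusted p = 0.952 and 0.955).

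Adgra3 encodes GPR125, an adhesion G protein-coupled receptor described on spermatogonial stem cells. With 80 promoter sites in a single region around the TSS (chr5:50216348, minus strand), it had the most promoter reads of the members. These were 2476 to 2836 per sample, summed over the sites, and are not a measure of depth per site. The promoter level was 1.20%, 1.58%, and 1.20% in Space and 1.68%, 0.705%, and 0.599% in Ground GS cells. The groups overlapped, and the means of 1.33% ± 0.216 and 0.994% ± 0.594 (SD, n = 3 each) did not pass the test (quasi-binomial test moderated with limma, adjusted p = 0.98). No sample's 95% binomial interval (Wilson) was wider than 0.992 percentage points. This width also takes the reads of neighbouring sites as separate and is too small. The 4 distal sites were methylated at 99.1%, 91.3%, and 96.7% in Space and 94.7%, 94.6%, and 95.3% in Ground GS cells.

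Promoters and distal sites were then compared within each sample, as the promoter level minus the distal level. The promoter was lower in 6 of the 7 genes with 3 or more sites of both kinds (limma on log2 ratios of methylated to unmethylated reads, Benjamini-Hochberg adjustment over 8422 genes). It was lower in 89.9% of all genes tested and higher in 3.09%, so that this share is near that of the background. On simulated equal levels with unequal depth, this test called unchanged genes too often, and a test in percentage points did not. In percentage points, the promoter was lower in 7372 of the 8422 genes and in the same 6 members. The mean gap over 6 samples was -95.5 percentage points in Itgb1, -94.1 in Adgra3, -59.2 in Cdh1, -14.4 in Epcam, -14.3 in Cd9, and -4.09 in Mcam. The median of all genes was -55.2 percentage points.

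Cd24a did not pass this test. Its gap was -2.68, 1.20, and -3.29 percentage points in Space and 0.392, -0.454, and -2.29 in Ground GS cells, with the promoter lower in 4 of 6 samples (limma, adjusted p = 0.119). The promoter was lower with 2 kb as the promoter limit (adjusted p = 0.000583) or without Space replicate 2 (adjusted p = 0.0171), and the estimate turned positive at 500 bp. The small gap of Mcam passed (limma, adjusted p = 0.00254) and was negative in all 6 samples, from -6.24 to -2.43 percentage points. Its promoter level was 0 in every sample, so the sign of the gap in percentage points was fixed by any methylated distal read. Its distal level drew largely on 1 site, methylated at 77.8% in Space and 80.2% in Ground GS cells. The other 18 distal sites averaged 1.24% and 1.84%.

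**Figure D3:**
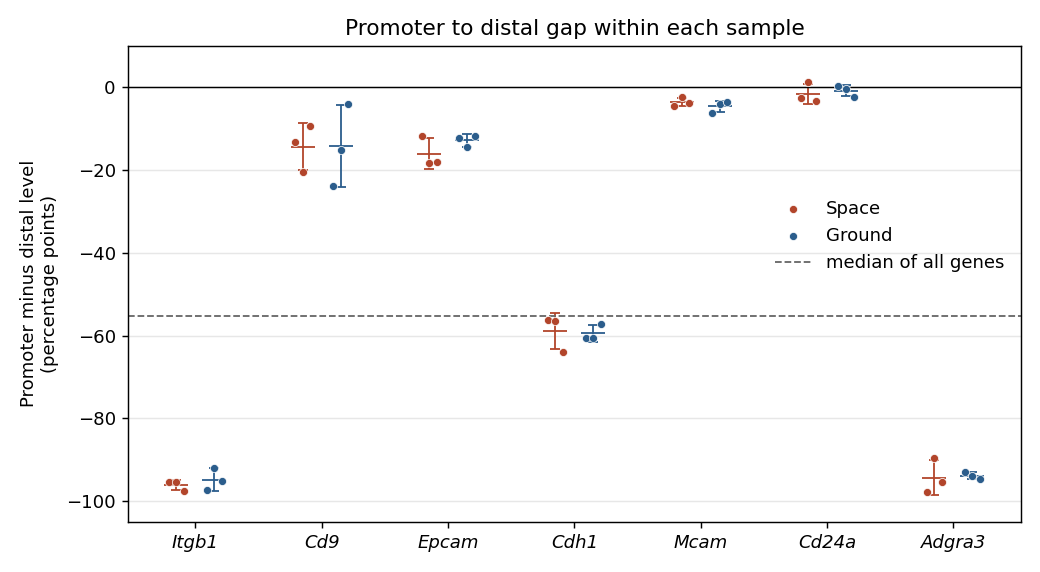
Promoter minus distal level (percentage points) in each sample for the 7 genes with sites of both kinds; points are replicates (Space red, Ground blue), bars the mean ± SD, and the dashed line the median of all genes, -55.2. Itgb1, Adgra3, and Cdh1 lie below the line in all samples, and Mcam and Cd24a lie near 0.

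No member passed the test of a gap that differs between Space and Ground GS cells (limma, group term of the same fit, 0 of 7 with an adjusted or unadjusted p under 0.05). The replicate values of the 2 groups overlapped in all 7, against 9.94% of all genes without overlap. In all genes, 0 of 8422 passed after adjustment and 4.79% had an unadjusted p under 0.05. The smallest unadjusted p of the members was 0.153 in Mcam (adjusted p = 0.997). Averaged over the members with equal weight per gene, the gap was -40.2, -40.2, and -41.7 percentage points in Space and -41.9, -40.1, and -38.4 in Ground GS cells. The mean promoter level over 7 genes was 1.58% ± 0.355 in Space and 1.65% ± 0.523 in Ground GS cells, and the mean distal level over 8 genes was 44.0% ± 0.381 and 44.8% ± 2.07 (SD, n = 3 each). The promoter means differed by -0.0718 percentage points, less than the SD of either group. The distal means differed by -0.805, more than the SD of the Space group but less than that of the Ground group.

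Across all genes, 0 of 14361 promoters and 0 of 17203 distal sets differed between the groups with an adjusted p under 0.05. An unadjusted p under 0.05 was found in 765 (5.33%) and 937 (5.45%) of them, and limma on log2 ratios and the quasi-likelihood test of edgeR also called 0, with 666 and 870 unadjusted for limma and 572 and 806 for edgeR. Among the members, 0 of the 6 promoters that could be tested had an unadjusted p under 0.05. The median absolute difference of the promoter level was 0.789 percentage points in the members and 0.598 in all genes, and that of the distal level was 1.91 and 1.40. With 1 replicate left out, the Space minus Ground difference at the promoter ranged from 0.6998 to 2.05 percentage points in Itgb1, from -1.44 to -0.142 in Epcam, from 0.548 to 1.38 in Cdh1, from 0.135 to 0.674 in Adgra3, and from 0.330 to 0.859 in Cd24a. At distal sites it changed sign in Cd9, Cdh1, and Adgra3.

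The single sites showed how the level depended on distance. All 207 promoter sites had a mean level under 10%, and 43 of them had no methylated read in any sample. Of the 131 distal sites, 90 were under 10%, 18 were between 10% and 90%, and 23 were over 90%. Sites 1 to 5 kb from the TSS averaged 12.1% in Space and 12.5% in Ground GS cells, against 20.7% and 20.6% for all sites at this distance. Sites 5 to 20 kb away averaged 70.2% and 70.6%, against 45.8% and 45.6%.

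Beyond 20 kb the level of the members fell back to 20.4% ± 0.717 and 19.5% ± 0.203, whereas that of all sites was 57.9% and 57.7%. Of these 36 member sites, the 28 of Epcam described above set the low mean. Neighbouring sites share reads and are not independent, and few genes make up each class. The difference between Space and Ground GS cells was under 1 percentage point in each distance class of the members.

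**Figure D4:**
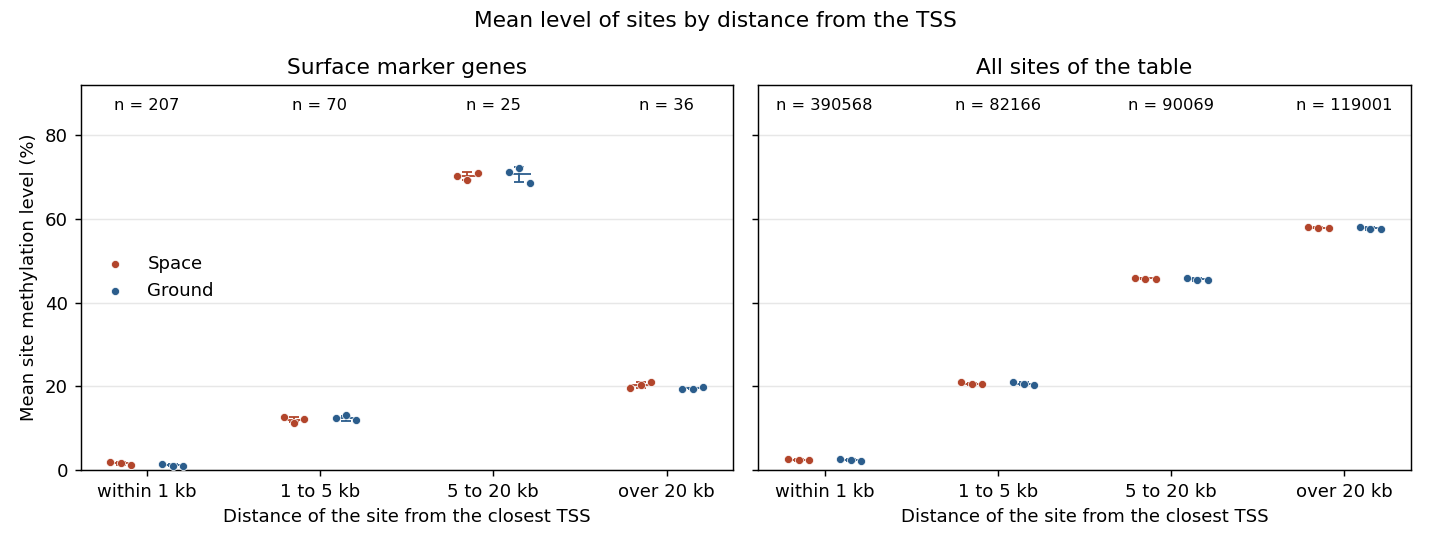
Mean site methylation level (%) by distance from the closest TSS, for the sites of the surface marker genes (left) and all sites (right); points are the replicates (Space red, Ground blue), bars the mean ± SD, and n the number of sites. The level of all sites rises with distance to 57.9% and 57.7% beyond 20 kb, while that of the members is highest from 5 to 20 kb (70.2% and 70.6%).

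Sites no more than 100 bp apart were joined into regions of 3 or more sites, which gave 21 member regions of 49221. A region of Cd24a upstream includes 1 site of another gene. Of them, 15 were under 10%, 4 were between 10% and 90%, and 2 were over 90%. None passed after adjustment, and 2 of the 21 had an unadjusted p under 0.05, against 5.36% of all regions tested (0 of 49134 with an adjusted p under 0.05). limma on log2 ratios and edgeR also called 0 regions, with 2376 and 1994 unadjusted. The groups did not overlap in 3 of the 21, against 9.23% of all regions.

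The smallest p was at the Cdh1 promoter (chr8:107329926-107330242, mm39, 21 sites across the TSS). Its level was 2.93%, 3.29%, and 1.45% in Space and 1.43%, 0.409%, and 1.18% in Ground GS cells. The groups were barely apart, since Space replicate 3 and Ground replicate 1 were nearly equal (quasi-binomial test moderated with limma, p = 0.0230, adjusted p = 0.905). The next Cdh1 region, 774 to 876 bp downstream, had the opposite order, 1.90% in Space and 2.55% in Ground GS cells.

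The next was an upstream region of Epcam (chr17:87920207-87920632, 15 sites, 22774 to 23199 bp from the TSS), at 2.98%, 3.84%, and 4.61% in Space and 1.40%, 2.18%, and 1.66% in Ground GS cells (quasi-binomial test moderated with limma, p = 0.0300, adjusted p = 0.905). It holds the member site with the largest difference, 22812 bp upstream, at 0%, 5.88%, and 33.3% in Space and 0% in every Ground sample, on 10 to 17 reads. That value rested on Space replicate 3. The third smallest p was in the Itgb1 promoter region of 53 sites (quasi-binomial test moderated with limma, p = 0.106, adjusted p = 0.910). In the third region without overlap, 19284 to 19476 bp upstream of Epcam, the level was 84.7%, 85.7%, and 84.8% in Space and 74.4%, 84.7%, and 77.8% in Ground GS cells.

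**Figure D5:**
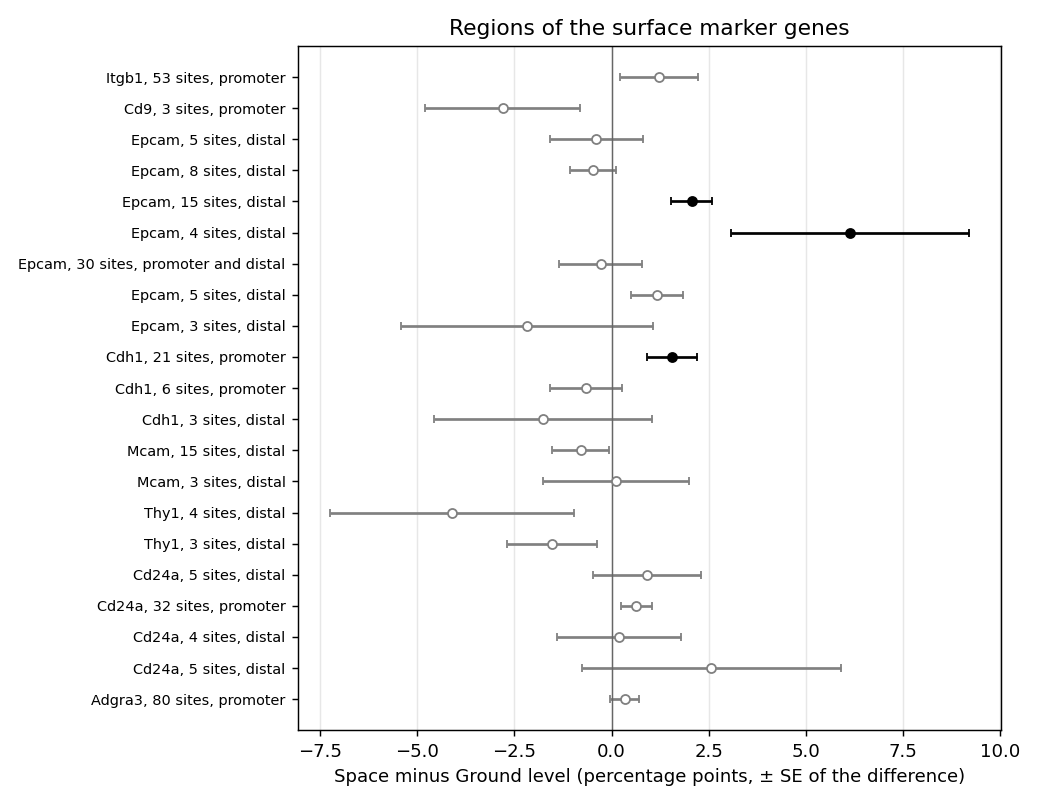
Space minus Ground level (percentage points) of the 21 member regions, in order of gene and position, with bars for the standard error of the difference of the means (n = 3 per group); filled points are regions whose replicate ranges do not overlap. The filled points are 1 region of Cdh1 and 2 of Epcam, with differences of 1.55, 2.06, and 6.14 percentage points.

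No member site differed by more than 20 percentage points between the group means, against 0.196% of all sites. The largest difference was 13.1 percentage points. The site test covered 33 member sites of intermediate mean level (5% to 95%), and the site of Epcam above alone had an unadjusted p under 0.05 (quasi-binomial test moderated with limma, adjusted p = 0.851), against 5.47% of all 92042 sites tested. In the whole table, 0 sites passed after adjustment, also by limma on log2 ratios (4292 unadjusted). The groups did not overlap at 8 of the 207 promoter sites and 6 of the 131 distal sites, against 4.34% and 5.86% of all sites of the same kind. Of the promoter sites, 4 were neighbours in Cd24a, 328 to 361 bp downstream of the TSS, at 3.85% to 7.69% in Space and 0% to 3.57% in Ground GS cells. They had 53 to 78 reads per sample and share reads, so that they count as 1 observation.

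The reads over all sites ranged from 28535973 to 33743845 per sample, and the median coverage of the member sites ranged from 28 to 35. The chi-square per degree of freedom between samples was 1.17 to 1.21 within groups and 1.16 to 1.20 between groups. It was highest for Ground replicate 1 with Ground replicate 2 (1.21) and with Ground replicate 3 (1.20). Against the Space samples, Ground replicate 1 was at 1.18 to 1.19. Without Ground replicate 1, 1238 distal sets had an unadjusted p under 0.05 (quasi-binomial test moderated with limma), against 937 with all samples. As a check of the cell type, 13 germ cell genes whose promoters are methylated in somatic cells (such as Ddx4 and Dazl) were examined. All 9 with a promoter level were under 10%, with sample means of 2.07% to 3.07% in Space and 1.16% to 3.25% in Ground GS cells. This share is near the 92.9% of all 14373 genes measured, so it does not by itself identify the cell type. Promoter levels were also under 10% for 3 of 3 fibroblast markers measured of 12 listed, so these do not tell germ cells from feeder cells.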

How the data were processed

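RRBS libraries were made by the authors from genomic DNA of 3 Space and 3 Ground GS cell samples with the Zymo-Seq RRBS kit, and the submitters' processing notes name Trim Galore, Bismark 0.24.2, methylKit, and mm39. The table that the authors deposited gives, for each CpG site and sample, the read coverage as a count and the methylated share as a percent, with the closest TSS and gene. Removal of duplicated reads and the joining of strands are not given in the sources used here. Copied reads would raise the coverage and make the binomial error too small, while lost reads would lower the coverage.

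Samples were grouped by their titles. The methylated reads of a site were its coverage multiplied by its percent (largest deviation from a whole number, 0.000266). A site was used if every sample covered it 10 times or more, and a level is the percent of methylated reads summed over a gene's promoter sites (within 1000 bp of the TSS) or distal sites, with at least 3 sites. Regions, genes, and sites (mean level 5% to 95%) were compared by a quasi-binomial test on the methylated reads out of the total, with the dispersion moderated by squeezeVar of limma 3.58.1 in R 4.3.3 and a threshold of 0.05 after Benjamini-Hochberg adjustment over all features. The gap was tested with limma on log2((methylated + 2)/(unmethylated + 2)). The prior of 2 reads shifts this ratio where depths are unequal, and on simulated data the test called too many unchanged genes, so the gap was also tested in percentage points. edgeR 4.0.16 was an alternative, as were other coverage minimums, windows, site numbers, and weights, a replicate block, and leaving out each replicate. The scripts were tested on simulated data. A change of 20 percentage points was recovered in 86% of changed promoters, 68% of distal sets, 61% of regions, and 22% of sites. With 40 percentage points, these were 97%, 99%, 98%, and 75%. Smaller changes, above all at single sites, could therefore be missed. The site test also called 112 unchanged sites of 92042, so single site calls are uncertain. Python 3.11.15 with matplotlib 3.10.9 made the figures, and the tables were handled with the R package data.table (version 1.17.8).

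All 9 genes are named by rule, with the 3 regions of smallest p, the 3 genes nearest to the member with the highest promoter level, and, for each list of related genes, the gene with the highest level and that with the largest difference. The result of 1 list is not reported here. Single sites and the split of the Thy1 sites were chosen after their values were seen. The members and lists were chosen with earlier results of these data known. Exons and introns are not given, because the annotation at hand is of GRCm38 and not of mm39.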

Additional observations from a re-analysis of the deposited data

How the results depend on the processing

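Over 189 values of the 15 gene differences under other settings, 182 kept their sign, and 11 of the 15 kept it under every setting tried. These counts include values that could not change sign, so they overstate how far the signs were checked. The Mcam promoter difference, among the 11, was 0 under all 12 of its settings, as no read was methylated. The replicate block alters the test but not a difference of means. A limit on the distance of distal sites cannot alter a promoter difference. No Space against Ground comparison of a member passed after adjustment under any setting run (smallest adjusted p 0.677, in the distal test). Over all genes, the promoter, distal, region, and gap by group tests called 0 under every setting except the promoter test with a replicate block, which called 2, none of them a member. The replicate block changed no other call of these tests. The labels share replicate numbers, and the sample descriptions are numbered consecutively within such pairs. Same-numbered samples deviated together with small positive correlations of 0.0438, 0.0220, and 0.00988. The other combinations ranged from -0.0367 to 0.0146, and Space replicate 3 correlated best with Ground replicate 2 (0.0146). No pairing is stated, so the main tests used none, and whether the samples are pairs was not settled. With the replicate block, 999 promoters and 3215 regions had an unadjusted p under 0.05 (quasi-binomial test moderated with limma). Without it, these were 765 and 2632. With 1 replicate left out, the site test called 0 to 5 sites, 5 without Ground replicate 1 and 1 without Space replicate 3. The promoter was lower than the distal sites in 7568 of 8422 genes, and in 3996 of 4793 with a coverage minimum of 20 reads, where fewer genes could be tested. That minimum also turned the Space minus Ground difference of the mean distal level over the members from -0.805 to 0.695 percentage points. With 1 replicate left out, this difference ranged from -1.67 to 0.339, and turned positive without Ground replicate 1. The differences of the mean promoter level (-0.0718) and of the mean gap (-0.604) moved by less than 1 SD but changed sign. The promoter mean rose to 0.172 with 20 reads, 0.186 with a limit of 500 bp, 0.131 without Space replicate 3, and 0.190 without Ground replicate 1, and the gap to 0.736 with 5 reads and 0.261 without Ground replicate 3. The promoter of every member except Cd24a remained lower under each setting that could be run. For Mcam, with no methylated promoter read, the sign in percentage points could not turn positive. Depth limits Mcam (64 promoter reads at the lowest, summed over its sites), Cd9 (48 distal reads), and Itgb1 (53 distal reads). Single levels there are uncertain by several percentage points or more. The replicates are 3 per group, and no exact permutation test of single values could go below 0.1.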

Other observations

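Related surface genes had promoters much like those of the members, and in none of the lists did a gene pass after adjustment (quasi-binomial test moderated with limma, 0 of 14361 over all genes). An unadjusted p under 0.05 was found in 2 of 17 tetraspanins, 1 of 17 immunoglobulin superfamily genes, and 1 of 3 fibroblast markers, against 5.33% of all promoters. Gfra1 and Kit encode receptors of the ligands GDNF and SCF. Kit was at 3.42%, 2.46%, and 3.33% in Space and 1.75%, 2.05%, and 0.714% in Ground GS cells (adjusted p = 0.942), without overlap, and Gfra1 was at 2.02% ± 1.20 and 2.75% ± 1.81 (SD, n = 3 each).

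Of 24 integrin genes 17 had a promoter level, and 16 were under 10%. The exception was Itga2b, the alpha subunit of the platelet integrin, at 91.4% ± 0.484 in Space and 86.95% ± 4.89 in Ground GS cells on 3 sites. Among 17 tetraspanins, Cd37, a gene of lymphoid cells, was highest (20.3% ± 7.19 and 19.1% ± 10.2), and Tspan12 differed most (2.91% and 6.06%). Among 13 adhesion G protein-coupled receptors, Adgrl4 was highest and differed most (12.3% ± 0.896 and 16.2% ± 7.09). All 13 cadherin and catenin genes measured were under 10%, with Cdh6 highest (2.91% and 2.22%) and the largest difference in Jup (2.50% and 1.19%). The 17 immunoglobulin superfamily genes measured were also under 10%, with Nectin2 highest (2.84% and 2.44%) and the largest difference in Chl1 (4.19% and 0.997%). Of 19 GPI-anchored proteins, 7 were measured, all under 10%, with Lypd3 highest (4.86% and 4.68%) and the largest difference in Cd59a (2.56% and 5.56%).

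Of the cell type lists, the germ cell promoters had Tdrd1 highest (3.78% and 2.68%) and the largest difference in Taf7l (3.93% and 2.35%). All 7 spermatogonial genes measured of 9 were under 10%, with Gfra1 highest and the largest difference in Kit. Pdgfrb was highest of the fibroblast markers and differed most (4.21% ± 5.69 and 1.84% ± 2.06). Kdr was the only one of 4 endothelial markers measured (1.78% and 2.27%), and 0 of 5 leukocyte markers had a promoter level.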
